A study of Mus musculus with 6 samples.

Results

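The genes described here are 10 transcription factors of the mesenchyme that surrounds the dorsal pancreatic bud and the adjoining spleen and stomach primordia, out of 24010 named genes on the array. They were taken by symbol from a given list, each was matched through the Entrez identifier of its row, and all 10 had 1 row. Expression was measured in dorsal pancreatic buds of mouse embryos at E11.5, cultured for 24 h in pools of 10 buds. There were 6 arrays in 3 groups of 2: I-BET151 at 500 nM, JQ1 at 100 nM, and 0.1% DMSO as the control. All groups shared the stage, the tissue and the culture time, and neither strain nor genotype is given in the sources used here. Nothing in the labels ties the 2 pools of a group to separate litters or culture days. Errors and p-values are therefore those of pools, and part of that spread may be technical.

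I-BET151 and JQ1 occupy the bromodomains of the BET proteins, which bind acetylated histones at promoters and enhancers and help RNA polymerase to elongate. Pancreatic mesenchyme supplies the growth signals that epithelial progenitors need, and its identity along the gut is set by homeobox and other transcription factors. Nkx3-2 and Nkx2-5 mark the mesenchyme shared by spleen and pancreas, Tlx1 is required for the spleen, and Barx1 patterns stomach mesenchyme. Foxf1 is a Hedgehog-responsive forkhead factor of the splanchnic mesoderm. Prrx1, Prrx2, Meox1, Meox2 and Twist1 act in mesenchyme of many organs, including limb, face and somite derivatives.

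Values are RMA intensities on a linear scale, and the median over all genes was 54 to 57 on each array. In DMSO buds, Barx1, Tlx1 and Foxf1 lay at the 96.8th, 95.5th and 90.3th percentile of all genes by mean log2 intensity, and Nkx2-5 and Nkx3-2 at the 82.0th and 77.6th. Prrx1, Twist1 and Prrx2 lay at the 65.4th, 60.9th and 59.2th percentile. Meox1 and Meox2, at the 47.0th and 43.3th, were below the array median. Probe brightness differs between probes, so these ranks do not order the genes by transcript number.

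The upstream sequences of members are shown because the results divide the 10 factors into a set that was lower with inhibitor and a set that was not. Prrx1, Prrx2 and Meox2 stand for the first set and Nkx3-2 and Barx1 for the second. RefSeq windows of 250 bases before an annotated start site were held for 8 of the 10 genes (build GRCm38.p6). They are printed 5′ to 3′ on the gene's strand, with capitals for the TATA element TATAAA, the CAAT box CCAAT, the GC box GGGCGG and the core TAATTA that many homeodomains bind, each searched on both strands. The annotated spans of Prrx1 and Prrx2 begin farther upstream of these windows.
Prrx1, chr1:163313651-163313900, minus strand: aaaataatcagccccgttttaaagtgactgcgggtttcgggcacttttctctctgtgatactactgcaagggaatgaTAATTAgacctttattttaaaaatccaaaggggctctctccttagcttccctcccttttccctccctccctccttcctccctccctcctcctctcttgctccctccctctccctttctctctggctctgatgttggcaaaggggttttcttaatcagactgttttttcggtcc
Prrx2, chr2:30845117-30845366, plus strand: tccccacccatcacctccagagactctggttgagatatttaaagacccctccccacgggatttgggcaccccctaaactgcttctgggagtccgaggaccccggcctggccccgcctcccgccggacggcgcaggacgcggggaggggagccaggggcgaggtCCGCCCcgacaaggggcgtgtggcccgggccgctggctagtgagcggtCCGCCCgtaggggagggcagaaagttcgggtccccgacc
Meox2, chr12:37108290-37108539, plus strand: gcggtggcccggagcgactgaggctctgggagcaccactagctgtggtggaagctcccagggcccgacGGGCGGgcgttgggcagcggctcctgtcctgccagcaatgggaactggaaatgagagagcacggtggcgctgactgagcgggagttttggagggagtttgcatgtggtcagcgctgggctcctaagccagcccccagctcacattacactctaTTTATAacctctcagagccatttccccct
Nkx3-2, chr5:41764221-41764470, minus strand: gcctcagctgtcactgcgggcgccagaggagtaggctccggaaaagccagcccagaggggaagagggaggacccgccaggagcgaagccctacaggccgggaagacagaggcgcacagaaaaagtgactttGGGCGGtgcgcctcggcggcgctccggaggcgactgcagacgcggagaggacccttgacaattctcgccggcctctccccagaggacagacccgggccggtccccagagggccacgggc
Barx1, chr13:48662786-48663035, plus strand: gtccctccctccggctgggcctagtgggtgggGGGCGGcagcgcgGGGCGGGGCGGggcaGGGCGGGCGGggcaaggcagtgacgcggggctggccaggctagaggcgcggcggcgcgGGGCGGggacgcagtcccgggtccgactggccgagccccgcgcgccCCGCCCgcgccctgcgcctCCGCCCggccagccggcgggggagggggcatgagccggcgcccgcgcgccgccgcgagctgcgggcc

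The windows differed in composition among the lower factors and among those that were not lower. Prrx1 had 47.6% G+C and 4 CpG dinucleotides, and it alone among the 8 member windows held TAATTA, which 4.84% of all 32851 windows of the same length hold. Prrx2 had 70.0% G+C, 21 CpG and 2 GC boxes. Meox2 had 62.0% G+C, 12 CpG, 1 GC box and 1 TATAAA match. Nkx3-2 had 68.8% G+C and 21 CpG, and Barx1 had 85.6% G+C, 40 CpG and 8 GC boxes, some of which overlap each other. Over all windows the median was 52.4% G+C and 6 CpG. GC boxes were found in 5 of 8 member windows and in 32.7% of all windows, CCAAT in 2 of 8 and 33.8%, TATAAA in 2 of 8 and 12.4%, and the E-box CANNTG in 4 of 8 and 66.2%. A match is a description of the letters only.

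Across the 10 factors, both Prrx genes and both Meox genes were lower in inhibitor-treated buds, by 1.72-fold to 2.00-fold for the mean of both inhibitors. Nkx3-2, Tlx1, Barx1 and Foxf1 were at or above their DMSO level, and Twist1 and Nkx2-5 lay in between. No member was called under I-BET151 at an adjusted p under 0.05 (limma, Benjamini-Hochberg over all genes). There 6 members had an unadjusted p under that value, of which Nkx3-2 was higher than with DMSO. Under JQ1 the number was also 6, of which Barx1 was higher, and for the mean of both inhibitors it was 5. Among all 24010 genes 4529 had such an unadjusted p under I-BET151, 5194 under JQ1 and 5440 for the mean of both inhibitors. Of all genes, 1.13% were called under I-BET151, 0.870% as falls and 0.262% as rises. Under JQ1, Prrx1, Prrx2 and Meox1 fell, 3 of 10 members, beside 2.67% of all genes that fell and 3.80% that were called either way. For the mean of both inhibitors against DMSO, Meox2 joined them, which gave 4 of 10 falls beside 3.33% of all genes, or 4.92% called either way. None of the 10 rose in any of these contrasts, beside 1.13% of all genes under JQ1 and 1.59% for the mean of both. The contrasts share their control arrays and are not independent of each other. In these whole buds, fewer cells of a type and less RNA per cell cannot be told apart.

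**Figure D1:**
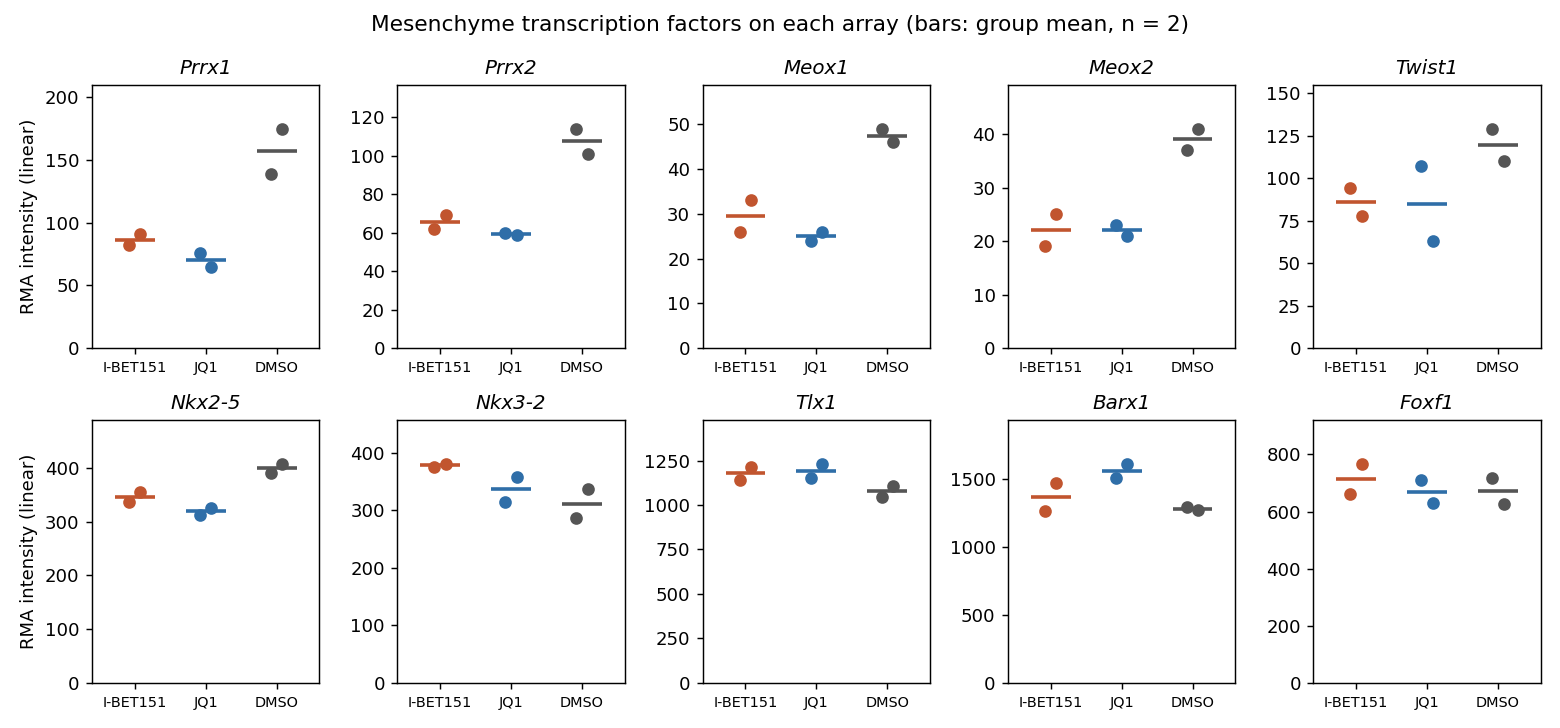
RMA intensity (linear, y axis) of the 10 factors on each of the 6 arrays, with I-BET151, JQ1 and DMSO from left to right. Points are arrays and bars are means of 2 arrays. For 6 of the 10 factors, Prrx1, Prrx2, Meox1, Meox2 and Twist1 among them, all I-BET151 and JQ1 points lie below both DMSO points. Those of Tlx1 all lie above, and those of the other 3, Foxf1 among them, overlap with DMSO.

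Prrx1 encodes a paired-related homeodomain protein of limb, craniofacial and body wall mesenchyme. Its intensity was 82 and 91 in I-BET151 buds and 76 and 65 in JQ1 buds, against 139 and 175 in DMSO buds. All 4 treated arrays lay below both DMSO arrays, and the DMSO pair was the most spread of the 3. The log2 change was -0.85 ± 0.15 under I-BET151 (SE, n = 2 arrays a group, limma adjusted p = 0.0861, not called). Under JQ1 it was -1.15 ± 0.15 (limma adjusted p = 0.0332), a 2.22-fold fall. It had the largest change among the 10 under each inhibitor.

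Prrx2, its paralogue, is expressed in many of the same mesenchymes and acts together with Prrx1 in the mouse limb and jaw. Its intensity was 62 and 69 with I-BET151 and 60 and 59 with JQ1, against 114 and 101 with DMSO. The treated arrays again lay below both controls, and the JQ1 arrays were nearly equal. Prrx2 had the smallest standard error of the Prrx and Meox genes. Its log2 change was -0.71 ± 0.09 under I-BET151 (limma adjusted p = 0.0537, just short of the threshold) and -0.85 ± 0.09 under JQ1 (limma adjusted p = 0.0241), a 1.80-fold fall.

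Meox1 is a homeobox gene of somites and their sclerotome and of other mesenchyme. It read 26 and 33 in I-BET151 buds and 24 and 26 in JQ1 buds, against 49 and 46 in DMSO buds. All treated arrays lay below both controls. Meox1 fell 1.90-fold under JQ1 (log2 change -0.93 ± 0.13, limma adjusted p = 0.0397) and had a log2 change of -0.70 ± 0.13 under I-BET151 (limma adjusted p = 0.0984, not called).

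Meox2, the second Meox gene, is known in limb muscle precursors and vascular cells. It read 19 and 25 with I-BET151 and 23 and 21 with JQ1, against 37 and 41 with DMSO. No treated array reached a control array. The changes of -0.84 ± 0.15 and -0.83 ± 0.15 were not called singly (limma adjusted p = 0.0921 and 0.0624), and the mean of both inhibitors was (log2 change -0.83 ± 0.13, limma adjusted p = 0.0441). Over both inhibitors the falls of Prrx1, Prrx2 and Meox1 were 2.00-fold, 1.72-fold and 1.76-fold, and that of Meox2 was 1.78-fold. With a pseudocount of 16 the log2 changes were -0.87, -0.65, -0.56 and -0.535 in the same order, so the sizes for the dim Meox genes depend on it.

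Twist1, a basic helix-loop-helix factor of mesoderm and neural crest mesenchyme, was the most variable of the 10 factors. It stood at 94 and 78 with I-BET151 and at 107 and 63 with JQ1, against 129 and 110 with DMSO. Each treated array was below each control, but the 2 JQ1 arrays lay farther apart than the I-BET151 and DMSO means. The log2 changes of -0.48 ± 0.28 and -0.54 ± 0.28 were not called (limma adjusted p = 0.441 and 0.357). The JQ1 change was -0.92 without JQ1 1 and -0.15 without JQ1 2, neither called among all genes. Once dim genes (below the median intensity) were dropped too, the first was called (limma adjusted p = 0.026) and the second was not (0.57). Their 95% intervals ran from -1.20 to 0.25 under I-BET151 and from -1.26 to 0.19 under JQ1, which include changes as large as that of Prrx1 under I-BET151.

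Nkx2-5, which marks spleen and pancreas mesenchyme and is better known from the heart, differed little between replicates. It measured 337 and 355 in I-BET151 buds and 313 and 326 in JQ1 buds, against 390 and 408 in DMSO buds. All treated arrays were below the controls, by less than for the Prrx and Meox genes. The log2 change was -0.21 ± 0.06 under I-BET151 (limma adjusted p = 0.198) and -0.32 ± 0.06 under JQ1 (limma adjusted p = 0.0728), and neither was called. The 95% intervals, -0.37 to -0.04 and -0.49 to -0.15, did not reach the estimates for Prrx1, Prrx2, Meox1 or Meox2. Nkx2-5 passed under JQ1 (limma adjusted p = 0.0257) once genes below the median intensity were left out, in a fit that called 2362 of 12005 genes. With 1 array left out its log2 change under JQ1 ran from -0.35 to -0.29. With arrays centred on their medians it was not called (limma adjusted p = 0.131).

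Nkx3-2, a homeobox gene of the mesenchyme shared by spleen and pancreas, was not lower. It measured 375 and 381 with I-BET151 and 315 and 357 with JQ1, against 286 and 336 with DMSO. The I-BET151 arrays lay above both controls and the JQ1 arrays overlapped with them. Log2 changes were 0.29 ± 0.11 and 0.11 ± 0.11 (limma adjusted p = 0.263 and 0.627, not called), with 95% intervals from 0.0018 to 0.57 and from -0.17 to 0.40.

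Tlx1, whose loss leaves mice without a spleen, stood at 1143 and 1212 with I-BET151 and 1152 and 1233 with JQ1, against 1047 and 1107 with DMSO. It was the only member with all 4 treated arrays above both controls. The differences were small, with log2 changes of 0.13 ± 0.07 and 0.15 ± 0.07 (limma adjusted p = 0.423 and 0.332, not called). The 95% intervals end at -0.06 and -0.04 on the lower side, so a fall of the size seen for the Prrx genes lies outside them.

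Barx1, a homeobox gene of stomach mesenchyme that also acts in spleen formation, was the brightest row of the 10. It read 1261 and 1472 in I-BET151 buds and 1508 and 1612 in JQ1 buds, against 1290 and 1268 in DMSO buds. The JQ1 arrays were above the controls and the I-BET151 arrays fell on either side of them. The log2 changes were 0.09 ± 0.09 (limma adjusted p = 0.666) and 0.29 ± 0.09 (limma adjusted p = 0.184), neither called.

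Foxf1, through which Hedgehog signals from the gut epithelium act on mesenchyme, overlapped between all groups. It stood at 661 and 768 with I-BET151 and 709 and 631 with JQ1, against 717 and 625 with DMSO. Its log2 changes were 0.09 ± 0.12 and -0.0012 ± 0.12 (limma adjusted p = 0.746 and 1), with 95% intervals from -0.23 to 0.41 and from -0.32 to 0.32.

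**Figure D2:**
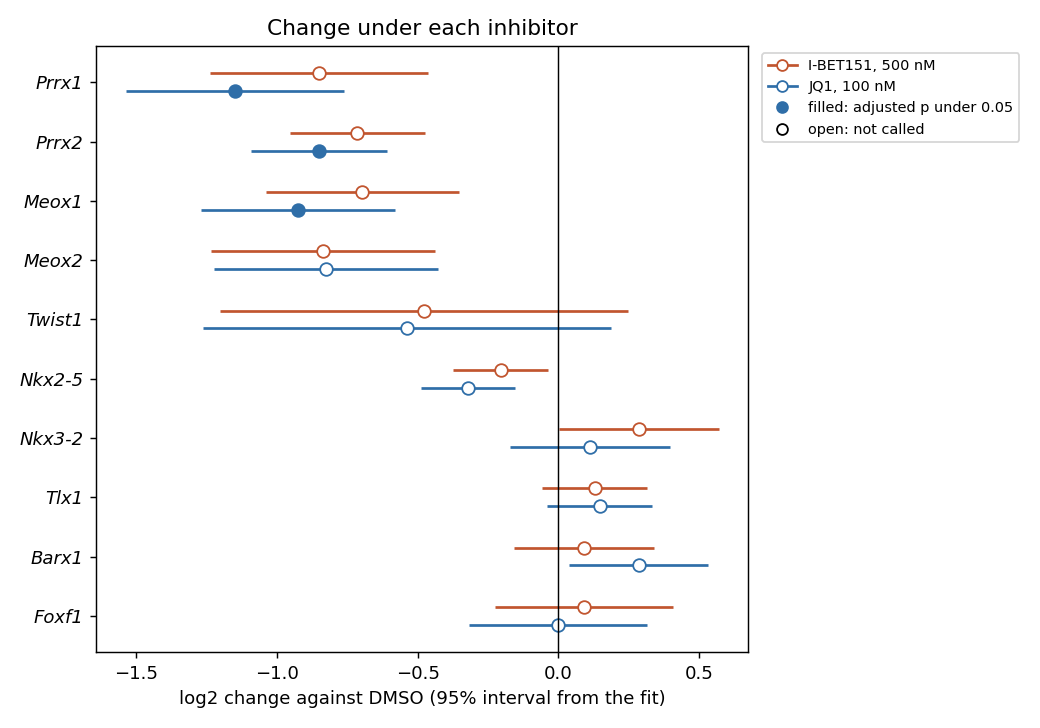
Log2 change of each factor against DMSO (x axis) for I-BET151 and JQ1, with 95% intervals from the limma fit over all genes. Filled points passed an adjusted p of 0.05, and only JQ1 points of Prrx1, Prrx2 and Meox1 are filled. The intervals of both Prrx and both Meox genes lie below 0, as do those of the Nkx gene that is brighter in DMSO buds. Those of Twist1, Tlx1 and Foxf1 include it. The JQ1 interval of Barx1 and the I-BET151 interval of Nkx3-2 lie above it, and the other interval of each includes it.

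Seen together, 6 of 10 factors had all 4 treated arrays below both DMSO arrays, 1 had them all above, and 3 overlapped. Among all genes, 14.9% lay wholly below and 14.4% wholly above, 29.4% together. With I-BET151 alone 6 lay below and 2 above, beside 20.7% and 21.5% of all genes (42.1% together). With JQ1 alone the numbers were 6 and 2, beside 21.0% and 23.9% (44.9% together). The median log2 change over the 10 factors was -0.34 under I-BET151 and -0.43 under JQ1, where the medians of all genes were 0.0033 and 0.02. It was -0.25 under JQ1 without JQ1 2. Over the 8 factors left when genes below the median intensity were dropped, it was -0.06 under I-BET151 and -0.16 under JQ1. The median over the 10 lies between the changes of Nkx2-5 and Twist1. Those 2 stand between the Prrx and Meox genes on one side and Nkx3-2, Tlx1, Barx1 and Foxf1 on the other. Changes spanned from -0.85 to 0.29 under I-BET151 and from -1.15 to 0.29 under JQ1.

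The 2 compounds were given at different doses, so their values stand side by side only. The falls of Prrx1, Prrx2 and Meox1 passed under JQ1 alone, but the fitted difference between JQ1 and I-BET151 buds was not called for any of the 10 factors, and none had an unadjusted p under 0.05. For Prrx1 this difference was -0.30 with a 95% interval from -0.68 to 0.09, for Prrx2 -0.14 (-0.38 to 0.10) and for Meox1 -0.23 (-0.57 to 0.11). For Meox2 it was 0.01 (-0.39 to 0.41). No gene of the 24010 was called in this contrast, and 1610 had an unadjusted p under 0.05.

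These calls rest on all 6 arrays. Without any 1 of them, whether I-BET151 1, I-BET151 2, JQ1 1, JQ1 2, DMSO 1 or DMSO 2, no gene on the array was called, and the adjusted p under JQ1 lay between 0.102 and 0.176 for Prrx1 and between 0.0860 and 0.168 for Prrx2. In these 6 fits the log2 change under JQ1 ran from -1.32 to -0.98 for Prrx1 and from -0.94 to -0.76 for Prrx2. Under I-BET151 it ran from -1.02 to -0.69 and from -0.80 to -0.63. With all arrays but without genes below the median intensity, Prrx1 and Prrx2 were called under both inhibitors. In that fit 1422 of 12005 genes were called under I-BET151 and 2362 under JQ1, beside 272 and 912 of 24010 as reported. Meox1 and Meox2 are below that median and were not in it. With all arrays and only the dimmest 25% of genes left out, Prrx1, Prrx2, Meox1 and Meox2 were called under I-BET151 as well (limma adjusted p = 0.0289, 0.018, 0.0393 and 0.0327). Over all genes this fit called 798 of 18007 under I-BET151, again more than the reported fit.

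The nearest protein-coding genes on either side of each factor, as ordered in GRCm38.p6, lay closer to 0 than the Prrx and Meox genes did. Of these 20 neighbours 18 had a named row, and none was called under I-BET151, under JQ1 or for the mean of both (limma, adjusted p under 0.05), with 3, 2 and 3 at an unadjusted p under 0.05. Their log2 changes for the mean of both ran from -0.37 to 0.22, with a median of 0.03. The lowest was Etv4, an ETS factor that responds to FGF signalling and lies next to Meox1, at -0.37. Ptges and Asb6, on either side of Prrx2, had 0.02 and -0.12, while Prrx2 had -0.78. Mroh9, next to Prrx1, had 0.03. Other annotated genes overlap the spans of Prrx1 and Nkx3-2, and whether the probes tell them apart was not tested.

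**Figure D3:**
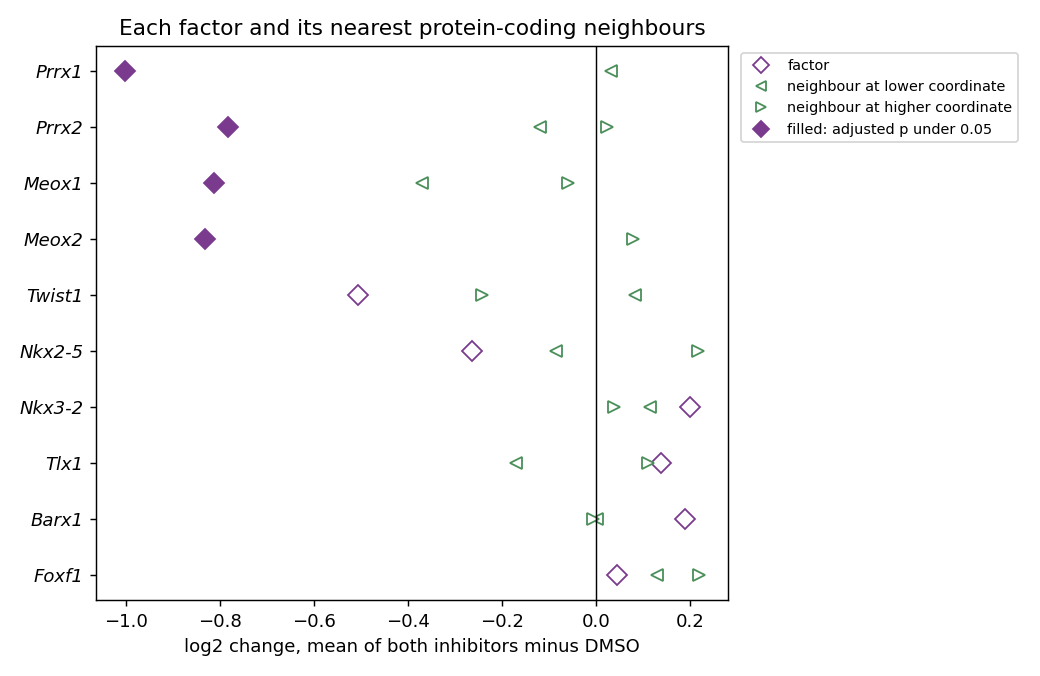
Log2 change for the mean of both inhibitors against DMSO (x axis) of each factor (diamonds) and of its nearest protein-coding neighbours (triangles). Filled symbols passed an adjusted p of 0.05, and no neighbour is filled. Neighbours lie between -0.37 and 0.22, while Prrx1, Prrx2, Meox1 and Meox2 lie at -0.78 or lower.

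Other genes of the mesenchyme were taken from lists. Of 34 other mesenchymal transcription factors, 1 fell and 1 rose for the mean of both inhibitors, beside 3.33% and 1.59% of all genes. The median change was -0.07, beside 0.02 for all genes. Their summed intensity was 22540 to 22852 with I-BET151 and 22452 to 22615 with JQ1, against 22198 to 22982 with DMSO. The faller was Osr2, a zinc finger factor of palate and limb mesenchyme, at 142 and 158 with I-BET151 and 106 and 108 with JQ1, against 197 and 201 with DMSO. It also fell under JQ1 alone (limma adjusted p = 0.0161). Tbx3, a T-box repressor, rose for the mean of both (log2 change 0.33, limma adjusted p = 0.0456), at 348 and 361 with I-BET151 and 365 and 387 with JQ1, against 293 and 287 with DMSO. None of these 34 factors was called under I-BET151 (limma), where 5 had an unadjusted p under 0.05.

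Among 9 closest relatives of the members, none was called in any contrast (limma), and 1 had an unadjusted p under 0.05, under JQ1. On all 6 arrays 6 of them stayed below the lowest array median. Nkx2-3, a homeobox gene needed for spleen and gut mesenchyme, was the brightest, at 255 and 265 with I-BET151 and 254 and 278 with JQ1, against 272 and 291 with DMSO. Twist2 stood at 44 and 38 and at 34 and 34, against 56 and 36. Both names were chosen after their values were seen.

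Signals and receptors of the mesenchyme (23 measured) had a median change of -0.17 for the mean of both inhibitors. There was 1 rise and 1 fall, beside 1.59% and 3.33% of all genes. Hgf, which encodes hepatocyte growth factor, fell under JQ1 (limma adjusted p = 0.0490) and for the mean of both. It stood at 96 and 91 with I-BET151 and 88 and 64 with JQ1, against 148 and 153 with DMSO. Kitl, which encodes the ligand of the Kit receptor, fell under JQ1 by 0.48 on the log2 scale (limma adjusted p = 0.0448). Wnt2b, a mesothelial and mesenchymal Wnt ligand, rose for the mean of both (limma adjusted p = 0.0366), at 247 and 288 with I-BET151 and 264 and 253 with JQ1, against 176 and 182 with DMSO.

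The matrix list held several of the falls in mesenchymal genes. Of 27 measured, 5 fell under I-BET151, 6 under JQ1 and 7 for the mean of both, and none rose. Of all genes, 0.870%, 2.67% and 3.33% fell in these contrasts. Tnc, which encodes tenascin C, stood at 116 and 118 with I-BET151 and 104 and 87 with JQ1, against 352 and 346 with DMSO. Postn, the periostin gene, had log2 changes of -1.94 and -2.25, Bgn, the biglycan gene, -0.96 and -1.31, and Dcn, the decorin gene, -1.29 and -1.84. All of them fell under both inhibitors. The median over the list was -0.20 for the mean of both, so most matrix genes changed less than Prrx1 or Meox2. The summed intensity of these 27 genes was 26035 to 27217 with I-BET151 and 25278 to 25566 with JQ1, against 30397 to 30912 with DMSO.

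**Figure D4:**
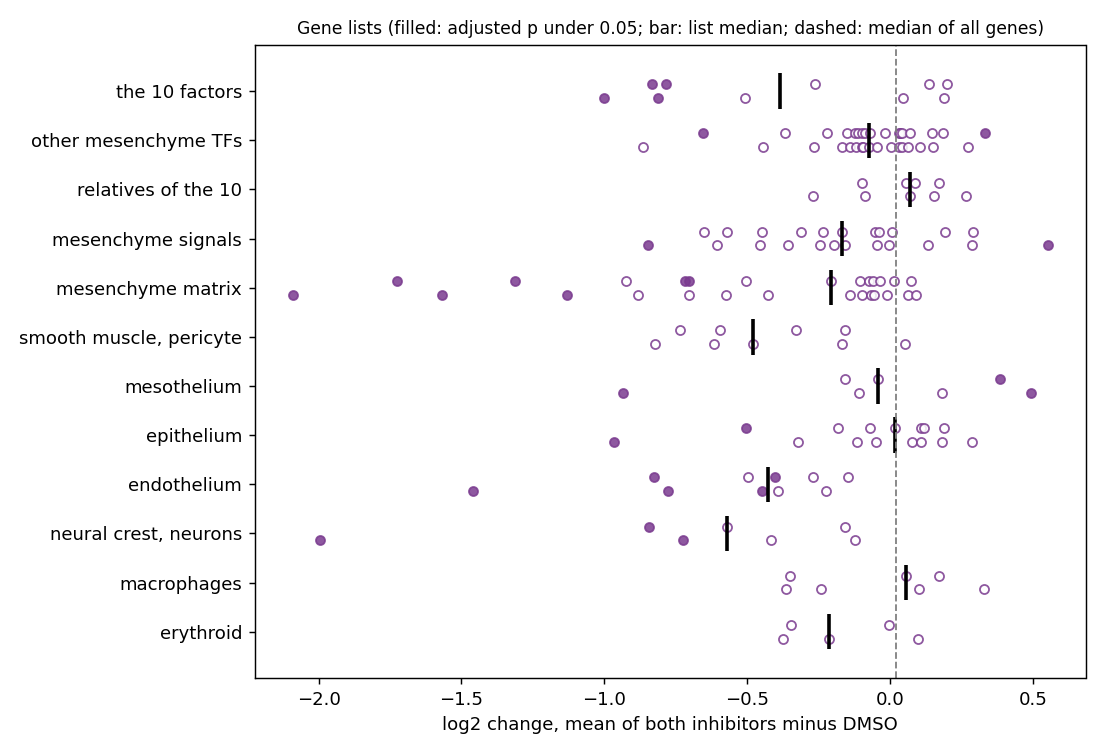
Log2 change for the mean of both inhibitors against DMSO (x axis) for the 10 factors and for the members of 11 lists. Filled points passed an adjusted p of 0.05, bars are list medians and the dashed line is the median of all genes, 0.02. The 4 filled points of the top row are the Prrx and Meox genes, with a list median of -0.38.

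Some markers of other cells in the bud also differed from DMSO, and their part in these results was not tested. The endothelial, neural crest and smooth muscle sums were lower with each inhibitor. The epithelial sum was lower with each inhibitor too, while the median change over its genes was 0.02 for the mean of both. Mesothelial, macrophage and erythroid sums of treated arrays overlapped with or lay above those of DMSO. Endothelial genes (10 of 10 measured) summed to 4578 to 4924 with I-BET151 and 4395 to 4403 with JQ1, against 6300 to 6453 with DMSO. Among them 2 fell under I-BET151, Tek and Eng, and 5 under JQ1, Tek, Eng, Emcn, Pecam1 and Cdh5. Neural crest and neuronal genes (7 of 9) summed to 1060 to 1231 and 1020 to 1115, against 2139 to 2220 with DMSO, with falls of Ednrb and Stmn2 under each compound and of Fabp7 under JQ1. Smooth muscle and pericyte genes (9 of 9) summed to 2735 to 2757 and 2540 to 2907, against 3340 to 3497 with DMSO. No smooth muscle gene was called for the mean of both inhibitors (limma), where 7 had an unadjusted p under 0.05, and their median change was -0.48.

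Mesothelial genes (7 of 7) summed to 3375 to 3420 and 3074 to 3167, against 2984 to 3116 with DMSO. Podxl rose under JQ1, Upk3b fell under JQ1, and Wt1, a zinc finger factor of mesothelium and early spleen, rose for the mean of both (log2 change 0.39, limma adjusted p = 0.0436). Epithelial genes (15 of 16) summed to 9986 to 10072 and 9264 to 10012, against 10237 to 10534 with DMSO. Cldn3 fell under both inhibitors and Krt18 under JQ1. Pdx1, which defines the pancreatic bud and is given as a check of the tissue outside the rule for names, was at 246 and 281 and at 244 and 330, against 252 and 228 with DMSO, and was not called. Macrophage genes (7 of 7) summed to 3234 to 3634 and 3081 to 3242, against 3157 to 3459 with DMSO. Erythroid genes (5 of 7) summed to 8025 to 8377 and 8529 to 8570, against 8315 to 8978 with DMSO. No macrophage or erythroid gene was called under either inhibitor (limma), with 2 of each under I-BET151 and 2 and 1 under JQ1 at an unadjusted p under 0.05. No gene of these lists was at the array's lowest value of 5 on any array.

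Genes above the median intensity whose pattern over the 6 arrays was nearest to a called factor were found by the root mean square difference between log2 values centred on the DMSO mean. For Prrx1 the nearest 3 of 12004 were Tm4sf5, St6galnac2 and Hhat, at 0.0829 to 0.0875. Hhat encodes the acyltransferase that adds palmitate to Hedgehog proteins, and stood at 101 and 108 with I-BET151 and 94 and 79 with JQ1, against 170 and 189 with DMSO. For Prrx2 they were Timp1, which encodes an inhibitor of matrix metalloproteinases, Stra6, which encodes a retinol uptake receptor, and Mansc4, at 0.0387 to 0.0461. For Meox1 they were Tmem97, Pde8a and Gm16551 (0.0577 to 0.0667), and for Meox2 Neurl3, Egln3 and Pik3ap1 (0.0616 to 0.0756). Prrx1 and Prrx2 were themselves in the pool searched, and neither was among the nearest 3 of another factor. Meox1 and Meox2 were below the median and were not in it.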

How the data were processed

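Total RNA of cultured dorsal buds was amplified as cDNA, labelled with biotin and hybridised to Affymetrix whole-transcript arrays, 1 pool per array, per the labels' protocols. The authors deposited intensities normalized by RMA, per the submitters' processing notes (no version given), on a linear scale and as whole numbers from 5 to 11028. The sources used here do not state how probes were combined per gene. RMA makes arrays alike, so a shift common to most genes may be reduced or lost. Array medians still differed slightly (54 to 57), and centring on them was an alternative. There are no detection calls, and 2 arrays per group limit the precision.

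Of 24972 rows, 24014 had 1 gene symbol in the platform annotation, none had several and 958 were unnamed here. For 4 repeated symbols the brightest row was kept, which left 24010 genes. log2(intensity) was computed from the deposited intensities without a pseudocount or filter. limma 3.58.1 in R 4.3.3 (lmFit, eBayes) was fitted to all 6 arrays, with 3 residual and 1.76 prior degrees of freedom, and p-values were adjusted by Benjamini-Hochberg over 24010 genes in each of 4 contrasts. Called means an adjusted p under 0.05, and only such genes are said to rise or fall. The fit was tested on simulated data. Arrays of one group correlated at 0.995 to 0.996 on the log2 scale and none was a copy of another.

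The members, the 11 lists (153 of 165 genes measured), the motifs and the neighbour rule were chosen with earlier results of these data known. Text names all members, the called genes of each list where 5 or fewer and otherwise the 4 with the smallest p for both inhibitors, and the 3 genes most like each called member. Promoter windows are RefSeq's (GRCm38.p6).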

Additional observations from a re-analysis of the deposited data

How the results depend on the processing

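The number of the 10 factors called changed with the processing. Under I-BET151 it was 0 as reported, 4 with the dimmest 25% of genes left out, 2 of the remaining 8 with genes below the median left out, 1 with arrays centred on their medians, 1 with a pseudocount of 16 and 4 with rounding dithered. Under JQ1 it was 3 as reported, 5 with a pseudocount of 16 (Meox2 and Nkx2-5 added), and 0 with only the groups of the contrast in the fit. With the replicate number as a block it was 0 under JQ1 and 0 for the mean of both inhibitors, where the block leaves fewer degrees of freedom and no gene on the array was called. Same-numbered arrays did not deviate together (correlations of -0.04 to -0.02 between groups), so the numbers are not taken to pair the arrays. The fits that left out 1 array gave 0 to 2 calls under I-BET151, 0 to 3 under JQ1 and 0 to 3 for the mean of both, each 0 unless genes below the median were also left out. JQ1 against I-BET151 gave 0 in every fit run.

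Over all genes, these settings moved the I-BET151 count between 0 and 1422 (272 as reported), the JQ1 count between 0 and 2362 (912) and that for both inhibitors between 0 and 2675 (1181). Centring the arrays on their medians gave 183 rises and 350 falls with I-BET151 (63 and 209 as reported) and 664 rises and 727 falls with JQ1 (272 and 640 as reported). For both inhibitors it gave 881 rises and 857 falls (382 and 799 as reported). Prrx1, Prrx2, Meox1 and Meox2 had negative changes against DMSO in every fit that held them. Signs turned only for changes that were not called. Foxf1 under JQ1 was 0.0636 with arrays centred, and with 1 array left out it ran from -0.10 to 0.10 (0.0829 without JQ1 2). In such fits Foxf1 was -0.0183 to 0.20 under I-BET151 (-0.0091 without DMSO 2) and -0.0547 to 0.14 for both (-0.0097 without I-BET151 2). Barx1 under I-BET151 was -0.0204 to 0.20 and Nkx3-2 under JQ1 -0.0028 to 0.23. Between JQ1 and I-BET151, Meox2 was -0.0344 with rounding dithered and -0.19 to 0.21 with 1 array left out, Tlx1 -0.031 to 0.0671 (-0.0242 without I-BET151 1), Twist1 -0.44 to 0.32 (0.074 without I-BET151 1) and Foxf1 -0.20 to 0.0171. The median over the members moved by more than the replicate spread in 7 fits of each contrast against DMSO, those without genes below the median, which drop Meox1 and Meox2. With 1 array also left out it then ran from -0.13 to 0.0014 under I-BET151, from -0.19 to -0.07 under JQ1 and from -0.15 to -0.07 for both. The list counts stayed within 1.5 times in 114 of 209 pairs of a list and an alternative for both inhibitors, 129 of 220 under I-BET151 and 118 of 220 under JQ1. The causes of the other shifts were not tested. The fit with only the groups of a contrast is the reported fit for both inhibitors, since it holds all 6 arrays, and gives no separate value there. With rounding dithered, the change of Meox1 was -0.68 under I-BET151, which was called, and -0.92 under JQ1.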
